A study of Bos taurus with 8 samples.

Results

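The histone genes of bovine embryonic stem cells (bESCs) were described across 4 lines, each cultured on a mouse feeder layer and without feeders. All genes in the deposited count table whose symbol begins as a core or linker histone name (H1-, H2A, H2B, H3C, H3-, H4C, H4- or MACROH2A) were taken, whatever their level, which gave 88 of the 32637 genes with values. Of these, 64 were replication-dependent copies, meaning the numbered copies of the histone clusters (H1-1 to H1-5 and the H2AC, H2BC, H3C and H4C genes). A further 11 were replacement variants (among them H1-10, H2AX, H2AZ1, H2AZ2, H2AJ, H3-3A, H3-3B, H3-5, MACROH2A1 and MACROH2A2), and the remaining 13 were mostly germline or unnumbered symbols.

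Histones package DNA into nucleosomes, with H2A, H2B, H3 and H4 in the core and H1 on the linker. Replication-dependent histone genes lie in clusters, are transcribed mainly in S phase, and classically give messages without introns that end in a stem-loop instead of a poly(A) tail. Replacement variants are mostly expressed through the cell cycle, from single and often intron-containing genes with polyadenylated messages. Most are also loaded outside replication, for example H3.3 at active genes and H2A.Z at promoters.

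RNA sequencing libraries came from the 4 independent bESC lines A, C, D and E, all given the genotype XX, in 5% O2. In one condition the cells grew on irradiated mouse embryonic fibroblasts (MEF) at passages 15 to 17, and in the other, named feeder-free, on vitronectin (VTN) at passages 20 to 22, with 4 libraries per condition and 1 per line. The methods add Activin A to the NBFR medium for feeder-free culture, whereas the sample titles give both conditions the same medium code. Feeder, matrix, supplement and passage number therefore changed together and cannot be told apart. The methods also say that reads of a pure MEF sample were removed from the counts of bESCs on MEF.

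Total counts were 44268717 to 54296425 in 7 libraries and 102351560 in feeder-free D. Of 10 bESC markers 9 had values, and each was expressed in every library, with POU5F1 at 1807 to 2341 CPM (counts per 1000000 of the TMM-scaled library) on MEF and 1725 to 1907 feeder-free. Without pairing 7 of the 9 had a log2 fold change below 0, with a median of -0.35. At an unadjusted p under 0.05, 6 were lower, against 11.4% of all tested genes. SALL4 had -0.58 (SE 0.11, edgeR adjusted p = 0.0426), just under the fold threshold, and OTX2 was called lower in the fit with line as a paired term (-0.66, SE 0.10, adjusted p = 0.0050). The 20 fibroblast markers summed to 910 to 1111 CPM on MEF and 628 to 1758 feeder-free, and 0 of them were at 0 in every library. Of the 18 of them that were tested, 2 (COL1A2 and PRRX1) were called lower and 2 (COL3A1 and POSTN) higher in the fit with line as a paired term. The part of feeder cells, or of the stem cell markers' lower level, in the histone results was not tested. In bulk RNA, fewer cells of a type and less RNA per cell cannot be told apart.

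The replication-dependent copies together had a lower summed CPM in feeder-free culture in every line, while the replacement variants stayed near their level on MEF. The sum over the 64 replication-dependent copies was 362, 135, 142 and 233 CPM on MEF in lines A, C, D and E, and 217, 83.5, 92.1 and 134 CPM feeder-free. Each feeder-free library was below the MEF library of its own line, but the conditions overlapped, because line A feeder-free lay above lines C and D on MEF. The means were 218 ± 106 (SD, n = 4) and 132 ± 61.1 CPM (SD, n = 4), so the feeder-free mean was 60.4% of the MEF mean. As log2 ratios within a line, the sums differed by -0.74 in A, -0.70 in C, -0.62 in D and -0.79 in E. The spread between lines was wider than the difference between the condition means. The highest library held 2.67 times the summed CPM of the lowest on MEF and 2.60 times feeder-free, and in both conditions the order of the lines was A, E, D, C from the highest.

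The 11 replacement variants, which made up most of the histone counts, summed to 5103, 4036, 3770 and 4617 CPM on MEF in lines A, C, D and E. They summed to 4815, 3573, 3826 and 4496 CPM feeder-free. The feeder-free sum was lower in 3 lines and higher in line D, and the log2 ratio of the means was -0.07. That sign rested on H3-3A: without this gene the log2 ratio was 0.06. The spread between lines was also narrower than for the clustered copies, with the highest library at 1.35 times the lowest in each condition. Set against the replacement variants of the same library, the replication-dependent copies gave 70.9, 33.6, 37.6 and 50.4 counts per 1000 replacement counts on MEF in lines A, C, D and E. The feeder-free ratios were 45.1, 23.4, 24.1 and 29.9, lower in each of the 4 lines.

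**Figure D1:**
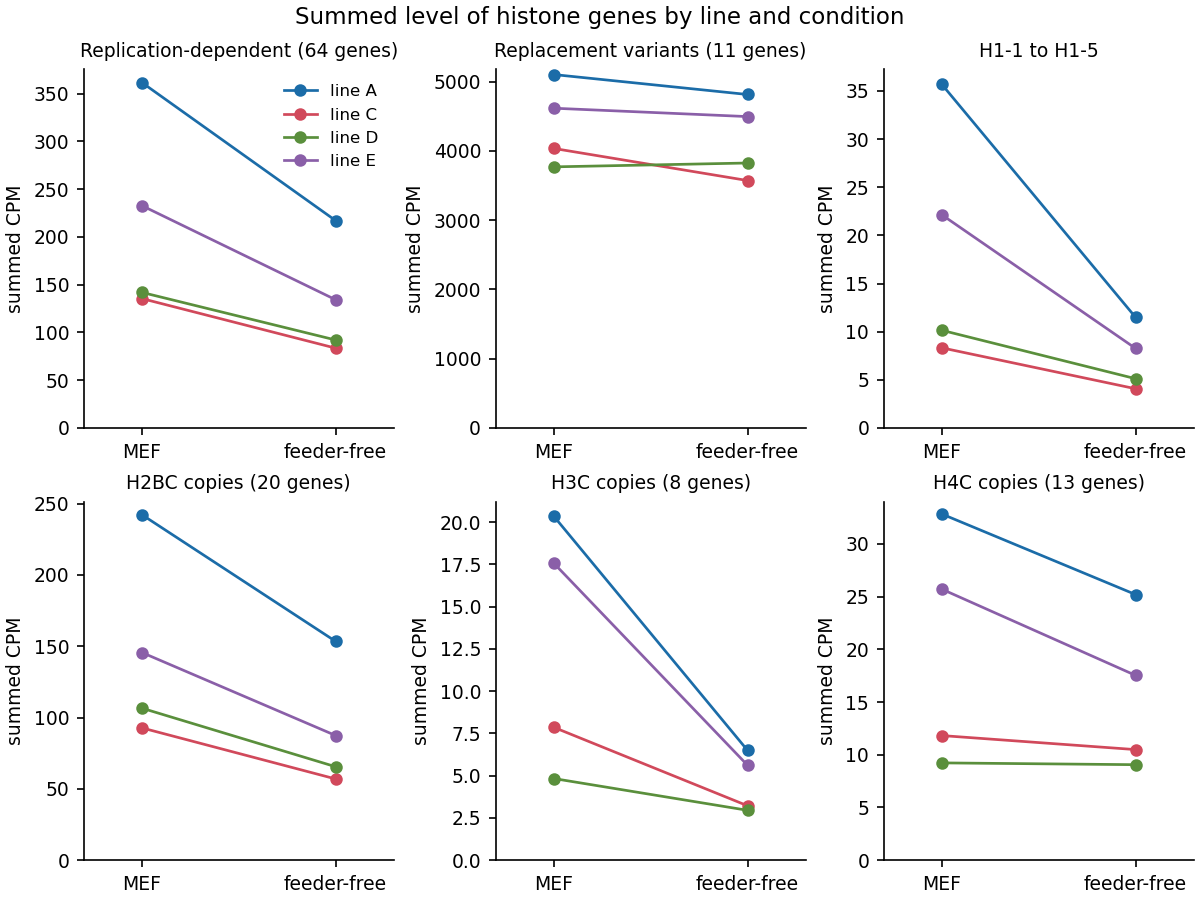
Summed CPM (linear axes from 0) of 6 groups of histone genes in each library, with the MEF and feeder-free libraries of a line joined. The replication-dependent sum runs downwards in all 4 lines, from 135 to 362 CPM on MEF to 83.5 to 217 CPM feeder-free, while the replacement variants lie between 3573 and 5103 CPM in all libraries.

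Of the 88 genes, 83 had at least 1 count and 64 passed the filter on low counts, namely 51 replication-dependent copies, all 11 replacement variants, and H1-6 and H1-12. The filter asked for about 0.199 CPM in at least 4 libraries. Of the 64 tested genes, 40 reached that level in all 8 libraries, 13 reached it in all MEF libraries but not in all feeder-free ones, and 0 the other way round, so the filter admitted some genes through their level on MEF alone. The 24 genes that were not tested averaged at most 0.270 CPM and had no count above 36. The 13 untested replication-dependent copies summed to 1.54 to 2.90 CPM on MEF and 0.283 to 1.10 CPM feeder-free.

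Among the tested genes, 3 were called lower in feeder-free culture and 0 higher in edgeR's quasi-likelihood test of condition alone, with calls made at an adjusted p under 0.05 where the fold change also reached 1.5. Over all 15744 tested genes, the same rule called 1.00% lower and 0.724% higher. At an unadjusted p under 0.05, 19 histone genes were lower, all of them replication-dependent, and 1 was higher, against 11.4% and 10.2% of all genes. Some of these 19, among them H1-4 and H2BC26, reached the filter level in fewer feeder-free than MEF libraries, so the count leans towards lower. Of the same 64 genes DESeq2 called 9 lower and 1 higher, and limma-voom 2 lower and 0 higher. The calls were fragile: leaving out feeder-free A left 3 calls, and leaving out any other single library left 0.

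The libraries of a line vary together, and a second fit with line as a paired term called 13 of the tested histone genes lower and 1 higher, against 4.53% and 5.52% of all genes. All 13 were replication-dependent copies, and the 1 that rose was the replacement variant H2AZ1. Leaving out both libraries of a line from this fit gave 6 genes lower without A, 6 without C, 8 without D and 7 without E. H2AZ1 was called in each of these fits but the one without D.

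Direction within lines was more uniform than the calls. In 34 of the 64 tested genes the feeder-free library was lower than the MEF library in all 4 lines, 32 of them replication-dependent copies, and in 2 (H2AZ1 and H2AJ) it was higher in all 4. Over all tested genes these shares were 20.7% and 20.2%. Because the filter admitted some of the 64 through their level on MEF alone, the count of lower genes leans upwards. Feeder-free values lay below all MEF values for 5 tested genes (H2BC17, H1-5, H4C12, H2BC8 and H1-4, of which H4C12 is named after its values were seen), and above all of them for 1 (H2AZ1), against 8.36% and 6.21% of all genes. Neither count was a larger share of the 64 than among all genes, so lack of overlap did not set the histone genes apart. Among the 13 untested copies, 4 were lower in all 4 lines and 1 (H4C16) was higher in all 4. H3C13, H2BC13 and H2BC3 showed no overlap either, at counts of 36 or fewer. These genes are also named after their values were seen, and no share over untested genes is given here.

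The fitted log2 fold changes, feeder-free over MEF, had a median of -0.98 over the 51 tested replication-dependent copies, of which 47 were below 0, with a range of -3.16 to 0.38. Because the filter admitted some copies through MEF alone, this median leans downwards and is given as a description. Over the 32 copies with at least 10 counts in every library it was -0.77, with 28 below 0. The median over the 11 replacement variants was 0.01, with 4 below 0 and 7 above. The median of all tested genes was 0.01. The paired fit gave medians of -0.96, 0.01 and 0.01. The clustered copies were also measured less precisely, with a median standard error of 0.56 against 0.21 for the replacement variants, or 0.42 against 0.12 in the paired fit.

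**Figure D2:**
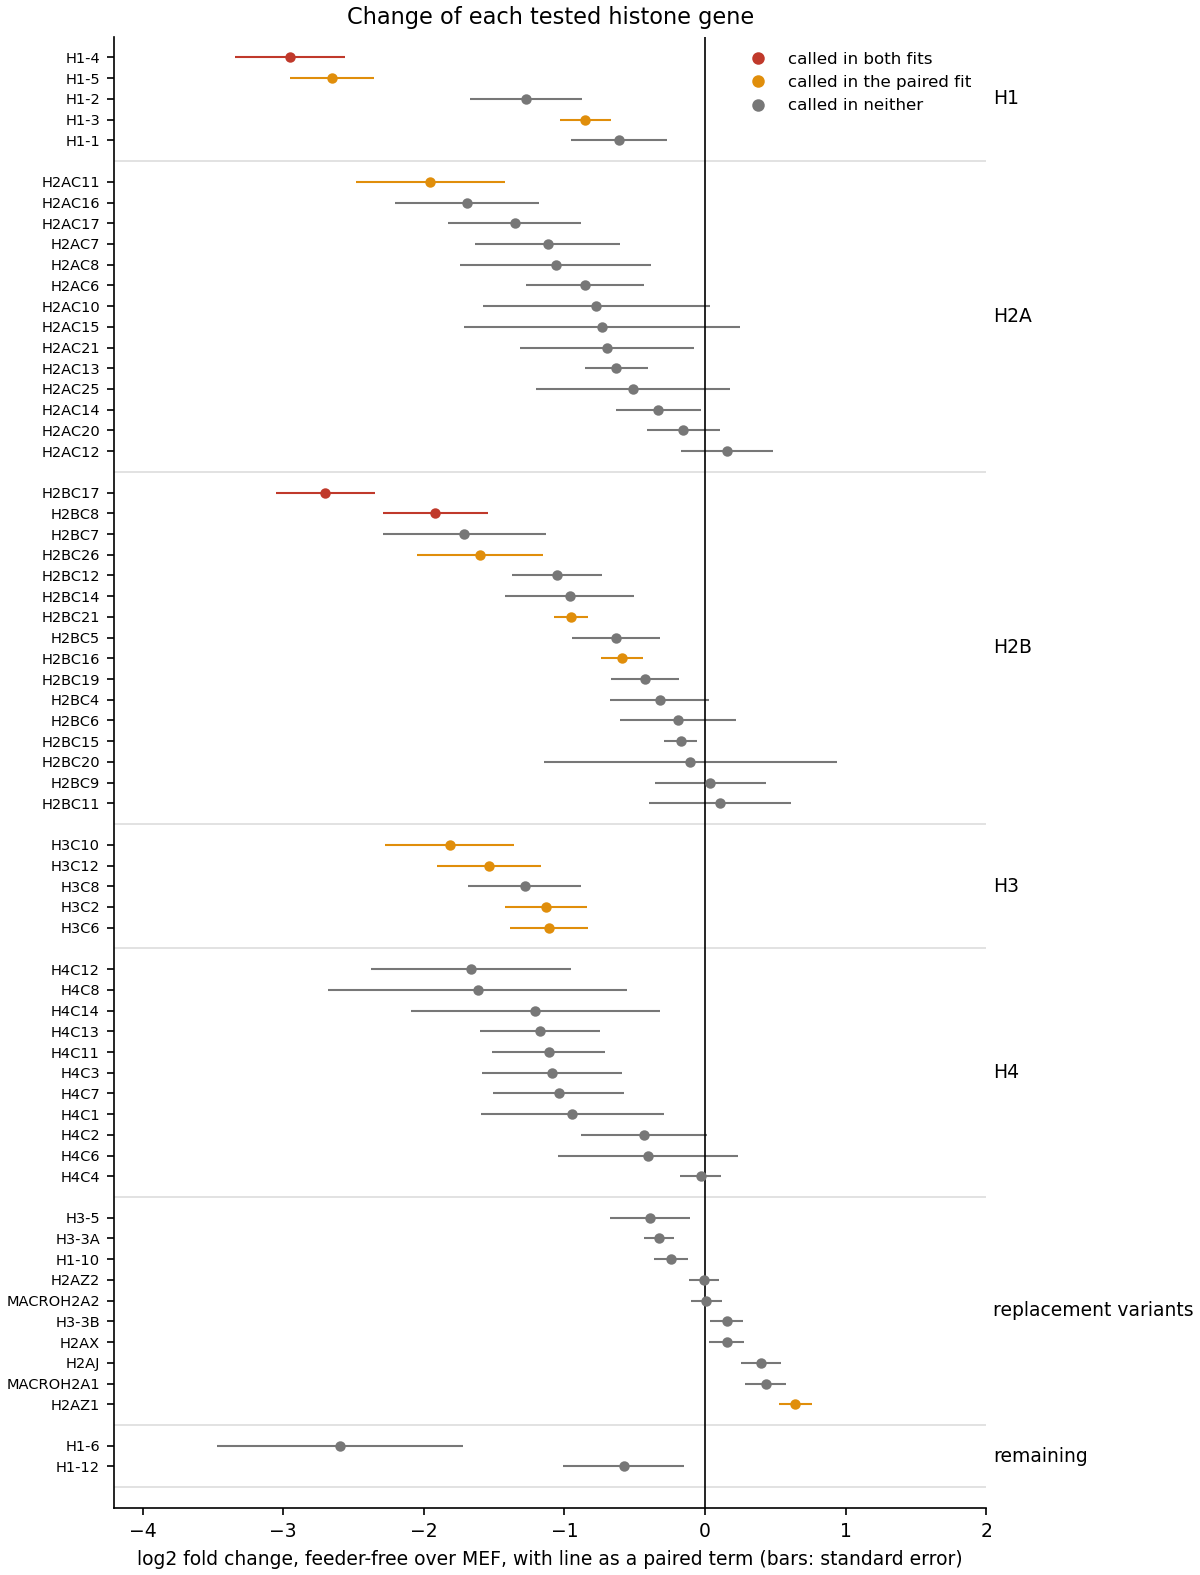
Log2 fold change, feeder-free over MEF, of 63 of the 64 tested histone genes in the fit with line as a paired term. Points are fitted values, bars their standard errors, and colours mark whether a gene was called in both fits, in the paired fit or in neither. The replication-dependent copies of every family lie mostly left of 0, and the replacement variants spread around it, with H2AZ1 farthest to the right.

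The linker histones H1-1 to H1-5, which bind between nucleosomes and compact the fibre, were lower in all 4 lines for every one of the 5 genes. H1-12 (synonym HIST1H1E), among the clustered genes of chromosome 23 at 31769993 to 31771607, was left out of this class by its symbol. It was lower in 3 lines and higher in line E (-0.36, SE 0.82). The sum of H1-1 to H1-5 was 35.7, 8.32, 10.1 and 22.1 CPM on MEF in lines A, C, D and E, and 11.5, 4.07, 5.11 and 8.26 CPM feeder-free, and the feeder-free mean was 37.9% of the MEF mean. In the paired fit 3 of the 5 were called lower, against 4.53% of all tested genes.

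H1-4 (chromosome 23, 31795624 to 31796822 in ARS-UCD2.0) stood at 4.23, 1.04, 0.91 and 3.08 CPM on MEF in lines A, C, D and E, and at 0.36, 0.15, 0.20 and 0.33 CPM feeder-free. All feeder-free libraries lay below all MEF libraries. The gene fell by 3.16 on the log2 scale (SE 0.60, adjusted p = 0.0403 in edgeR's quasi-likelihood test), and by 2.95 (SE 0.39, adjusted p = 0.0023) with the paired term. It passed the filter on low counts in 4 MEF but only 2 feeder-free libraries, so that its being tested depended on its level on MEF.

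H1-5 (chromosome 23, 30963938 to 30964727) stood at 9.48, 1.49, 1.92 and 5.21 CPM on MEF and at 1.08, 0.21, 0.44 and 0.88 CPM feeder-free, in the same order of lines. The conditions did not overlap here either, although lines A and E were several times higher than C and D on MEF. The log2 fold change was -2.79 (SE 0.71), which missed the threshold without pairing (edgeR adjusted p = 0.0671), and the gene was called lower in the paired fit (-2.65, SE 0.30, adjusted p = 0.0013).

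H1-3, which had the highest CPM of the 5 linker copies without scaling for length, stood at 15.3, 4.45, 5.33 and 9.54 CPM on MEF and 7.60, 2.54, 3.40 and 5.00 CPM feeder-free. Within each line the feeder-free value was the lower, whereas across lines the conditions overlapped. It was called lower in the paired fit (-0.85, SE 0.18, edgeR adjusted p = 0.0142) and not without pairing (-0.90, SE 0.46, adjusted p = 0.294).

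Among the 20 H2B copies, which pair with H2A in the nucleosome core, 16 were tested. The paired fit called 5 of them lower, against 4.53% of all tested genes. The summed level fell short of MEF in every line, and the feeder-free mean was 61.9% of the MEF mean. Without H2BC21, the H2B copy with the highest CPM, the share was 74.2%.

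H2BC17 (chromosome 23, 30948173 to 30948626) had the lowest adjusted p of the histone genes without pairing. It stood at 2.54, 3.12, 1.88 and 3.85 CPM on MEF in lines A, C, D and E, and at 0.50, 0.26, 0.28 and 0.79 CPM feeder-free. The lowest MEF library was more than double the highest feeder-free one. The gene fell by 2.64 on the log2 scale (SE 0.44, edgeR adjusted p = 0.0331), and by 2.70 (SE 0.35, adjusted p = 0.0022) with the paired term.

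H2BC8 (chromosome 23, 31758964 to 31759531) stood at 2.11, 1.53, 1.28 and 1.13 CPM on MEF and at 0.52, 0.34, 0.41 and 0.31 CPM feeder-free. The conditions did not overlap, and the lines were closer to one another than for the linker copies. It fell by 1.93 (SE 0.36, edgeR adjusted p = 0.0397), and by 1.92 (SE 0.37, adjusted p = 0.0106) with the paired term.

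H2BC21 (chromosome 3, 20725423 to 20727750), the replication-dependent copy with the highest CPM without scaling for length, stood at 129, 47.3, 57.2 and 76.6 CPM on MEF in lines A, C, D and E, and at 60.8, 29.4, 25.2 and 42.3 CPM feeder-free. Every line was lower feeder-free, with overlap between conditions. The log2 fold change was -0.98 (SE 0.36, edgeR adjusted p = 0.155) and the gene was called lower only when line was a term (-0.95, SE 0.12, adjusted p = 0.0020).

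The H2B copies next by CPM did not all follow it. H2BC15 stood at 56.5, 16.8, 25.0 and 21.3 CPM on MEF and at 51.5, 13.7, 24.2 and 18.3 CPM feeder-free, with a log2 fold change of -0.15 (SE 0.47) and no call in either fit. Without the MEF library of line A its sign turned, to 0.35. H2BC16 stood at 25.9, 12.1, 10.9 and 18.2 CPM on MEF and at 16.7, 7.14, 9.10 and 11.3 CPM feeder-free, and was called lower in the paired fit alone, at -0.59 (SE 0.15, edgeR adjusted p = 0.0274). The remaining H2B call of that fit, H2BC26 on chromosome 7 (named after its values were seen), was -1.6 (SE 0.45, edgeR adjusted p = 0.0392), and it reached the filter level in 3 of the 4 feeder-free libraries.

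**Figure D3:**
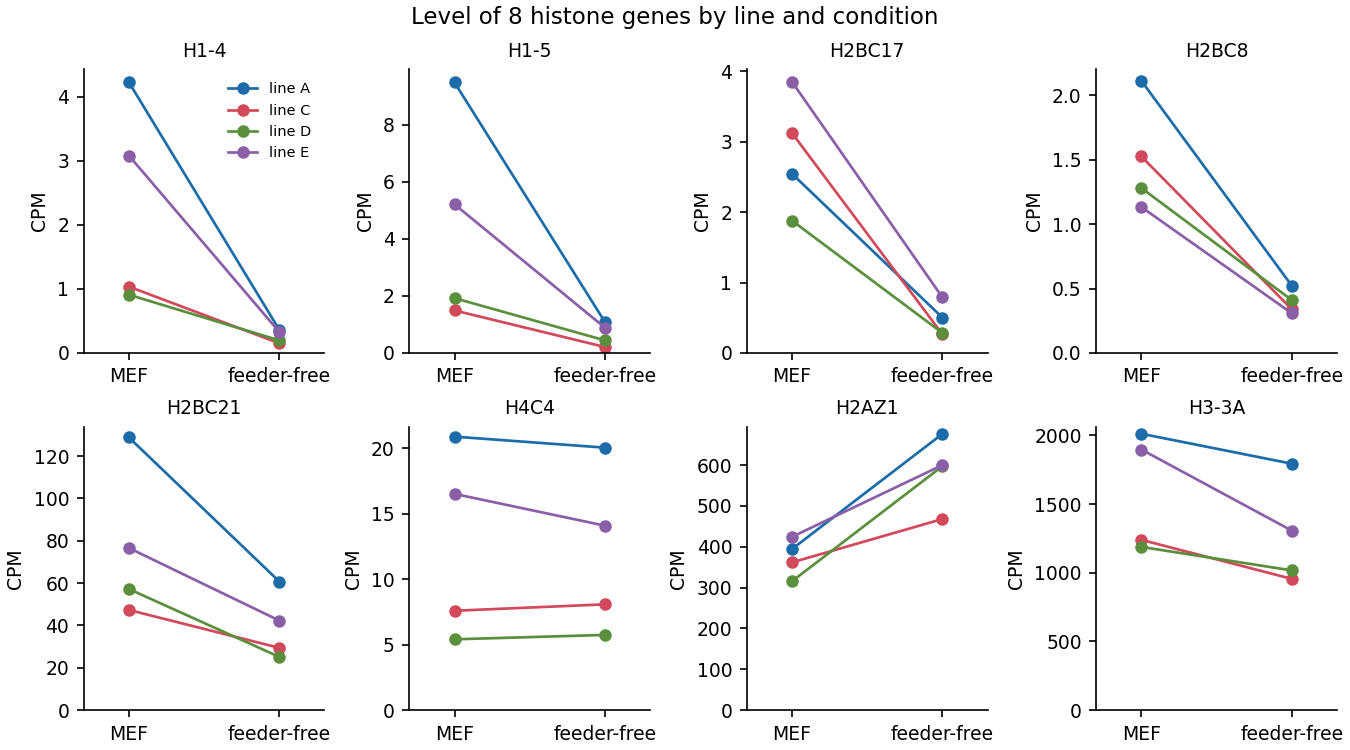
CPM (linear axes from 0, a scale for each panel) of 8 histone genes in each library, with the libraries of a line joined. H1-4, H1-5, H2BC17 and H2BC8 separate the conditions, H2BC21 is lower in each line with overlap, H4C4 is nearly level, H2AZ1 is higher in each line and H3-3A lower in each line.

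Among the 18 H2A copies, 14 were tested and 1 was called lower in the paired fit, against 4.53% of all tested genes. That gene, H2AC11, was near the limit of detection in several libraries, at 1.01, 0.20, 0.25 and 0.97 CPM on MEF in lines A, C, D and E and 0.16, 0.08, 0.06 and 0.31 CPM feeder-free, where 3 counts correspond to 0.0293 to 0.0720 CPM. Line E feeder-free lay above lines C and D on MEF. Its log2 fold change was -1.95 in the paired fit (SE 0.53, edgeR adjusted p = 0.0349) and -2.02 without pairing (SE 0.76, adjusted p = 0.161). It reached the filter level in 4 MEF libraries and 1 feeder-free library, so it was tested through its level on MEF alone. The summed H2A copies reached 69.3% of the MEF mean, and their median log2 fold change was -0.81.

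The H3 copies, which code for the canonical H3 proteins loaded behind the replication fork, had the lowest feeder-free sum relative to MEF of the 5 families, just under that of H1, a difference that was not tested. They summed to 20.4, 7.86, 4.83 and 17.6 CPM on MEF in lines A, C, D and E and to 6.50, 3.22, 2.95 and 5.62 CPM feeder-free, so the feeder-free mean was 36.1% of the MEF mean. All 5 tested copies were lower in all 4 lines, and 4 were called lower in the paired fit, against 20.7% and 4.53% of all tested genes. These 4, named after their values were seen, were H3C2 (-1.13), H3C6 (-1.11), H3C10 (-1.82) and H3C12 (-1.53). Without pairing edgeR called 0 of the 5, with 4 lower at an unadjusted p under 0.05, and DESeq2 called 2 lower. Against the replacement genes H3-3A, H3-3B and H3-5, the H3C copies gave 8.06, 4.52, 2.88 and 7.58 counts per 1000 on MEF and 2.79, 2.25, 1.89 and 2.96 feeder-free.

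The H4 copies gave a divided picture. In the paired fit 0 of 11 tested copies were called in either direction, although their median log2 fold change was -1.08 without pairing. At an unadjusted p under 0.05 without pairing, 4 were lower and 0 higher, against 11.4% and 10.2% of all genes. The paired fit gave the same counts, and neither DESeq2 nor limma-voom called any. H4C4, the H4 copy with the highest CPM, stood at 20.9, 7.59, 5.41 and 16.5 CPM on MEF and at 20.0, 8.08, 5.75 and 14.1 CPM feeder-free. It was lower in 2 lines and higher in 2, with a log2 fold change of -0.07 (SE 0.49), or -0.03 (SE 0.14) with the paired term. The summed H4 copies were at 78.2% of the MEF mean, and at 49.1% without H4C4.

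Levels between genes were compared only per length, as CPM per kilobase of annotated genomic span, among the 36 tested copies with a span under 1000 bases. Their median was 2.25 CPM per kilobase on MEF and 1.03 feeder-free. H4C4 had the highest value in both conditions, at 15.9 and 15.1. Among the replacement variants, H2AJ (span of 677 bases) was higher at 36.6 and 47.3 CPM per kilobase. H2AX (1317 bases) stood at 122 and 136, and H1-10 (1417 bases) at 892 and 758, both with spans above the bound used for the copies. Not all were higher than H4C4: H3-5, with a span of 1054 bases, averaged 2.51 CPM on MEF and 1.89 CPM feeder-free, here not scaled for length.

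In the genome, 50 of the replication-dependent copies lay on chromosome 23, 11 on chromosome 3, 2 on chromosome 7 and 1 on chromosome 5. The 43 tested copies on chromosome 23 had a median log2 fold change of -1.08 and the 6 on chromosome 3 of -0.59. Summed CPM over all copies, tested or not, gave the other order. By that measure the feeder-free mean was 65.5% of the MEF mean for chromosome 23 and 53.2% for chromosome 3, where H2BC21 lies. Copies with an annotated span under 1000 bases had a median of -1.11 (36 tested), and those of at least 1000 bases, which include the most abundant copies, had a median of -0.78 (15 tested). By summed CPM over all copies the spans hardly differed, with feeder-free means at 59.9% and 60.7% of the MEF means. These medians include copies that the filter admitted through their level on MEF. These differences were not tested.

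H2A and H2B copies often lie side by side, and 15 such pairs had at most 500 bases between the annotated genes. In 11 pairs both genes were tested, and in 9 both log2 fold changes were below 0. The 2 values of a pair lay between 0.49 and 2.40 apart, with a median of 0.98. These gaps were not tested, and the standard errors of the single copies ran from 0.33 to 0.90. The H2A copy had the lower value in 4 pairs and the H2B copy in 7. The widest gap was between H2AC11 (-2.02, SE 0.76) and H2BC11 (0.38, SE 0.83), and H2BC17 (-2.64) exceeded its neighbour H2AC17 (-1.47, SE 0.54) in the same direction. H2AC17 and H2BC11 are named for their position beside these genes.

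**Figure D4:**
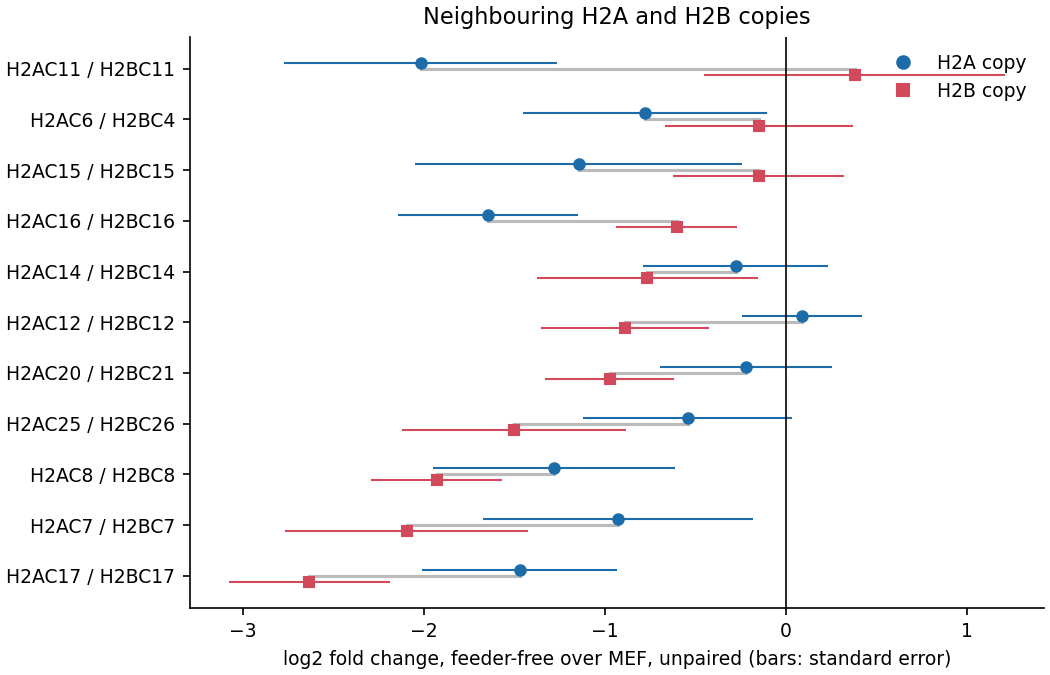
Log2 fold change, feeder-free over MEF, without pairing, of the 11 neighbouring pairs in which the H2A copy (circles) and the H2B copy (squares) were both tested, with bars for the standard error. The grey lines join neighbours; 9 of 11 pairs have both points left of 0, and their lengths run from 0.49 to 2.40.

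Among the replacement variants, H2AZ1, which codes for the main form of H2A.Z, rose in the paired fit. It stood at 394, 362, 316 and 424 CPM on MEF in lines A, C, D and E, and at 676, 468, 597 and 600 CPM feeder-free. All feeder-free libraries lay above all MEF libraries. The log2 fold change was 0.65 (SE 0.15), which missed the threshold without pairing (edgeR adjusted p = 0.0585) and passed it with the paired term (0.64, SE 0.12, adjusted p = 0.0086).

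Its paralog H2AZ2 stood at 418, 239, 207 and 383 CPM on MEF and at 479, 216, 219 and 344 CPM feeder-free. It was lower in 2 lines and higher in 2, with a log2 fold change of 0.01 (SE 0.31) or -0.01 (SE 0.11) with the paired term. The difference between the H2A.Z genes was not tested.

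The other H2A variants were not called in either fit. H2AJ, an H2A variant encoded apart from the clusters, stood at 34.1, 23.0, 17.3 and 24.7 CPM on MEF and at 36.6, 26.1, 28.9 and 36.5 CPM feeder-free, higher in all 4 lines with overlap (0.37, SE 0.21, edgeR adjusted p = 0.355, or 0.0845 with pairing). The RefSeq annotation places H2AJ within the span of GUCY2C. H2AX, whose phosphorylated form marks DNA breaks, ranged from 138 to 207 CPM on MEF and from 140 to 223 CPM feeder-free, with a log2 fold change of 0.16 (SE 0.19). MACROH2A1, whose protein carries a large macro domain and is associated with silent chromatin, ranged from 16.0 to 30.1 CPM on MEF and from 26.9 to 36.9 CPM feeder-free (0.40, SE 0.21, edgeR adjusted p = 0.299, or 0.0716 with pairing). MACROH2A2 ranged from 144 to 163 and from 136 to 172 CPM, with a log2 fold change of 0.01 (SE 0.11).

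The H3.3 genes code for the replacement form of H3, and neither was called. H3-3A stood at 2012, 1239, 1188 and 1897 CPM on MEF in lines A, C, D and E, and at 1794, 955, 1017 and 1307 CPM feeder-free. It was lower in every line with overlap between conditions, at -0.32 (SE 0.25, edgeR adjusted p = 0.516) or -0.33 (SE 0.11, adjusted p = 0.0636) with the paired term. H3-3B ranged from 420 to 513 CPM on MEF and from 474 to 586 CPM feeder-free (0.15, SE 0.12). H3-5 ranged from 1.78 to 2.99 CPM on MEF and from 1.6 to 2.09 CPM feeder-free (-0.41, SE 0.27).

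The replacement linker histone H1-10 was not called in either fit. It ranged from 1152 to 1342 CPM on MEF and from 902 to 1213 CPM feeder-free, with a log2 fold change of -0.24 (SE 0.13, edgeR adjusted p = 0.352).

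Outside both classes, the testis-type linker gene H1-6 had a log2 fold change of -2.17 (SE 1.11, edgeR adjusted p = 0.298) at 0.528 CPM or less in every library, and its span overlaps H4C3. H1-12 had -0.36 (SE 0.82). The other 11 remaining genes were not tested, and H1-7, H3-4 and H2BL1 had a count of 0 in every library, as did the clustered copies H2AC1 and H2BC1.

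The genes that transcribe and process replication-dependent histone messages did not move as a group. Of 20 tested, 1 was called lower and 1 higher without pairing, with a median log2 fold change of -0.01. POU2F1, the OCT1 factor that acts at H2B promoters, stood at 198, 204, 229 and 274 CPM on MEF and at 117, 136, 103 and 104 CPM feeder-free. The conditions did not overlap, and it fell by 0.98 (SE 0.15, edgeR adjusted p = 0.0331). CCNE2, a cyclin E that activates CDK2 at entry into S phase, stood at 5.40, 7.94, 8.03 and 7.25 CPM on MEF and at 14.0, 12.3, 12.2 and 12.7 CPM feeder-free, and rose by 0.84 (SE 0.17, edgeR adjusted p = 0.0486), also with no overlap. The annotated spans of POU2F1 and CCNE2 overlap LOC132344811 and INTS8. With the paired term LSM11, a subunit of the U7 particle that directs the cut at the 3′ end of histone messages, was also called lower (-0.64, SE 0.15, edgeR adjusted p = 0.0195). The annotated span of LSM11 overlaps CLINT1, LOC785534 and LOC785561. SLBP, the stem-loop binding protein, was higher in all 4 lines without a call (0.33, SE 0.16, edgeR adjusted p = 0.255).

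None of the 26 histone chaperone and loading genes was called in either fit, with a median log2 fold change of -0.05. At an unadjusted p under 0.05, 5 were lower and 1 higher without pairing, against 11.4% and 10.2% of all genes. With pairing 6 were lower and 3 higher, and the share over all genes at this bound is not given here for that fit. The 20 DNA replication genes, which mark cells in S phase, had 0 calls in either fit and a median of 0.22, with 16 above 0. At an unadjusted p under 0.05 without pairing, 1 was lower and 3 higher. With pairing, again without a share over all genes to set beside them, 1 was lower and 8 higher. Of the latter, and named after their values were seen, PCNA (0.47, adjusted p = 0.0256), RRM2 (0.56, adjusted p = 0.0175) and CDC6 (0.53, adjusted p = 0.0408) passed the adjusted p of edgeR's paired fit and missed the fold threshold. In the same fit POLA1 of the replication list did so downwards (-0.41, adjusted p = 0.0284). So did the chaperone list's UBN1 (-0.51, adjusted p = 0.0173), EP400 (-0.55, adjusted p = 0.0235) and CABIN1 (-0.46, adjusted p = 0.0353), and the mitosis gene TOP2A (-0.52, adjusted p = 0.0142). The 12 mitosis genes had 0 calls in either fit and a median of -0.08, with 2 lower and 0 higher at that unadjusted p, and 2 and 1 with pairing. The sums of the replication list were 2804 to 3710 CPM on MEF and 3094 to 3989 CPM feeder-free. DESeq2 and limma-voom also called 0 genes of these 3 lists.

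Other RNAs without a long poly(A) tail varied between the libraries in a similar order. The 2 mitochondrial rRNA genes, chosen after their values were seen, summed to 1436, 514, 535 and 1878 CPM on MEF in lines A, C, D and E, and to 518, 258, 380 and 408 CPM feeder-free. They were lower feeder-free in all 4 lines, by -1.47, -0.995, -0.49 and -2.20 as log2 ratios, and the high libraries on MEF were again those of lines A and E. In the paired fit both genes passed the threshold (-1.29, SE 0.19, edgeR adjusted p = 0.0040, and -1.28, SE 0.24, adjusted p = 0.0095), and without pairing neither did (adjusted p = 0.0621 and 0.104).

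TERC, RMRP and RN7SL1, the 3 tailless RNAs of a list set for this purpose, summed to 9.03, 2.43, 2.56 and 12.3 CPM on MEF and to 5.02, 1.21, 2.82 and 2.39 CPM feeder-free. The sum was lower feeder-free in 3 lines and higher in line D, and 0 of the 3 genes were called in either fit (log2 fold changes of -0.70, -1.34 and -1.56 without pairing). At an unadjusted p under 0.05, edgeR found 0 of the 3 lower without pairing and 2 with it, and DESeq2 found 2 and called 0. No share over all genes at this bound is given for the paired fit or DESeq2. Set against the mitochondrial rRNA of the same library, the replication-dependent copies gave 252, 264, 265 and 124 counts per 1000 on MEF and 419, 324, 242 and 329 feeder-free, so this ratio was higher feeder-free in 3 lines and lower in line D. How the RNA was selected for the libraries is not given in the sources used here, and the part of RNA selection in the lower level of the clustered copies was not tested.

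**Figure D5:**
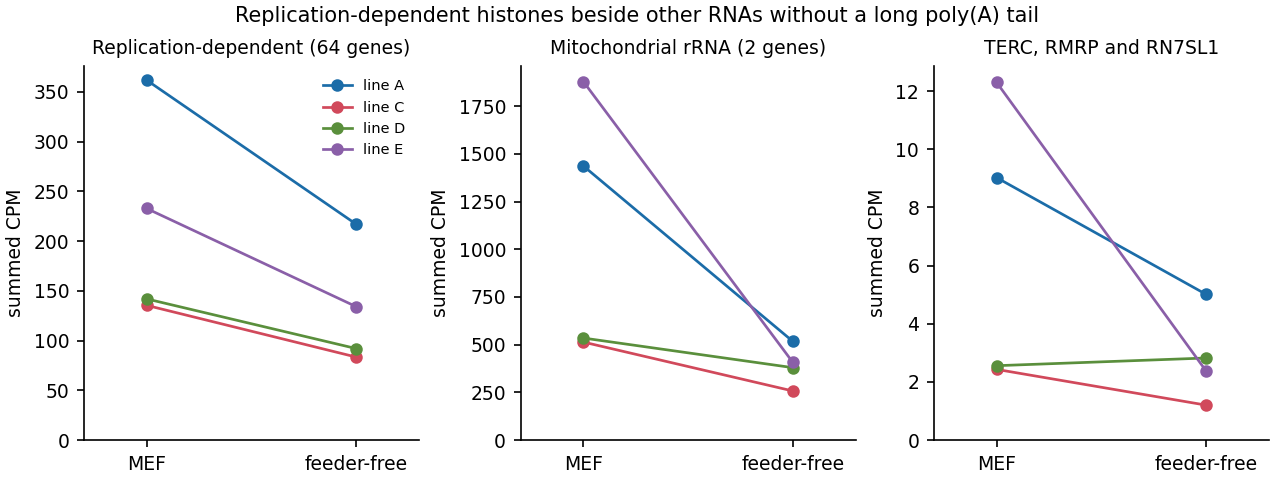
Summed CPM (linear axes from 0) of the 64 replication-dependent copies, of the 2 mitochondrial rRNA genes and of TERC, RMRP and RN7SL1 in each library, with the libraries of a line joined. On MEF lines A and E are the highest in all 3 panels, and the feeder-free value is lower in every line for the first 2 panels and in 3 of 4 lines for the third.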

How the data were processed

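RNA from bESCs of 4 lines in 2 conditions was sequenced as paired 150 base reads. The values deposited by the authors are unnormalized gene counts. According to the methods, Trimmomatic removed adapters and low-quality bases, STAR mapped the reads to ARS-UCD2.0, Picard removed optical duplicates, samtools dropped alignments of low mapping quality, and featureCounts (Subread 1.6.2 per the submitters' processing notes) counted them. Reads that fit several near-identical histone copies can be lost by that mapping filter, so the level of a single copy is uncertain. Whether strand was used, and whether reads or fragments were counted, is not given in the sources used here. Even numbers made up 63.0 to 71.0% of counts between 10 and 100, so many fragments appear to have been counted as 2 reads. Without known strand, overlapping genes cannot be separated; 8 tested histone genes overlap another gene. The sample records name Trizol and the NEBNext Ultra II kit, whereas the methods name RNeasy.

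Of 32640 genes, 3 without values were left out, and 0 columns were unused. edgeR 4.0.16 in R 4.3.3 was run on the counts of all genes (filterByExpr, TMM, glmQLFit, glmQLFTest; condition as the only term). P-values of the 15744 tested genes were adjusted by Benjamini-Hochberg. CPM values are counts per 1000000 of the TMM-scaled library size. Standard errors were derived from the log2 fold change and its F statistic. The fits were tested on simulated data. Each line was grown in both conditions, so line pairs the libraries: deviations from the condition mean correlated at 0.42 to 0.66 within a line and at -0.52 to 0.25 between lines. No 2 libraries of a condition were alike (chi-square per degree of freedom of at least 43.7). All records give the same sequencing batch. Intervals for single counts were not computed; 3 counts were taken as the floor, for counting error only.

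The histone genes, classes and lists were chosen with earlier results of these data known. Described singly were genes called without pairing, the 5 most abundant replication-dependent copies, tested replacement variants (1 of them is not reported here), and up to 5 of the largest calls in each direction of the paired fit; other genes are said to be chosen after their values were seen, or for position. All 88 symbols matched RefSeq's annotation of ARS-UCD2.0, the source of coordinates and spans. Alternatives were DESeq2 1.42.0, limma 3.58.1 (voom), other scaling and filters, no fold threshold, H2AX among the clustered copies, left-out libraries and, added after seeing the data, the paired fit without each line.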

Additional observations from a re-analysis of the deposited data

How the results depend on the processing

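The number of replication-dependent copies called lower moved most. It was 3 in the main analysis, 2 to 3 with other scaling, filters or limma-voom, 11 with DESeq2, which also tested copies under the filter on low counts, and 13 with the paired fit (replicate block). The replacement variants called higher numbered 0, but 1 with DESeq2 and 1 with the replicate block, H2AZ1 in both cases. Leaving out 1 library gave 0 to 3 histone genes lower, 0 higher, and 0 replacement variants in either direction. Leaving out a line from the paired fit, chosen after seeing the data, gave 6 to 8 lower (5 to 8 replication-dependent, and 0 to 1 replacement variants) and 0 to 1 higher. The number of replication-dependent copies called higher was 0 throughout.

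The median log2 fold change of the replication-dependent copies was -0.77 when at least 10 counts were asked of every library, where fewer low copies are tested, and -1.31 to -0.79 when a library or line was left out. That of the replacement variants was -0.028 to 0.19. The log2 ratio of summed CPM was -0.61 without H2BC21 for the replication-dependent copies and -0.75 to -0.70 without a line. For the replacement variants it was -0.09 to -0.04 without a line, and 0.056 without H3-3A. H2AX averaged 161 CPM on MEF and 180 CPM feeder-free, beside sums of 218 and 132 CPM for the replication-dependent copies. Counting H2AX among those copies would therefore make the fall of their sum smaller.

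Among the genes described singly, signs turned for 4, all near 0 and none of them called. H2BC15, at -0.67 to 0.35 without a library, reached 0.35, 0.065 and 0.0049 without MEF A, feeder-free C and feeder-free E. H4C4, at -0.44 to 0.28, was 0.28, 0.08, 0.08 and 0.16 without MEF A, MEF E, feeder-free C and feeder-free D, and 0.05 in the paired fit without line E. H2AZ2, at -0.26 to 0.18, was -0.00035 with limma-voom and -0.0067 with the replicate block, -0.10, -0.14, -0.26 and -0.03 without MEF C, MEF D, feeder-free A and feeder-free E, and -0.08 and -0.04 in the paired fit without lines A and D. MACROH2A2, at -0.057 to 0.074, was -0.016, -0.0027 and -0.030 without MEF E, feeder-free C and feeder-free E, and -0.057 in the paired fit without line E. The causes were not tested. Most clustered copies had under 5 CPM, which limits single genes more than their sum.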
